A study of Homo sapiens with 9 samples.

Results

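Genes of the cornified envelope and the skin barrier were followed across all groups of a HaCaT experiment. They were taken by symbol from the table of counts per gene: 47 members among 20263 genes. All 47 were found, each with 1 Ensembl identifier, and 36 passed the filter on low counts, against 13912 of all genes. HaCaT is a line of immortalised human epidermal keratinocytes. The groups were HaCaT cells laden with melanosomes and treated with glabridin (a licorice isoflavan), HaCaT cells laden with melanosomes alone, and control HaCaT cells (labelled WT or blank), with 3 libraries each. By their labels, the glabridin and melanosome groups both received melanosomes and differ in the compound. The glabridin dose, exposure times, the melanosomes' source, confluence and calcium were not found in the sources used here, and glabridin without melanosomes was not analysed here. All samples come from 1 cell line. Nothing in the labels places the libraries of a group in different cultures, and a p-value then covers only how far these libraries vary, which may be technical.

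Keratinocytes that leave the basal layer build a cornified envelope beneath the plasma membrane. Transglutaminases join involucrin, loricrin, small proline-rich proteins and plakins into this shell, and lipids made by lipoxygenases, ceramide synthases and elongases are attached to it or fill the space between cells. Kallikrein proteases later cut the corneodesmosomes that hold dead cells together, under the control of inhibitors such as LEKTI, the product of SPINK5. HaCaT cells are known to differentiate incompletely, and genes of the granular layer are often low in them.

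Deposited counts totalled 42582054 to 46591852 per glabridin library, 39653425 to 46690787 per melanosome library and 41793696 to 45839573 per control library. Levels are CPM, counts scaled to library size with TMM, a factor that centres most genes, and a gene was called at an edgeR adjusted p under 0.05 over all 13912 genes. Melanocyte markers were present in the laden groups: their 20 genes summed to 2113 to 3853 CPM in glabridin libraries, 3538 to 3662 CPM in melanosome libraries and 275 to 280 CPM in control libraries. Of these 20 genes, 19 were called higher and 1 lower in melanosome than in control libraries, and TYR, TRPM1, SLC24A5, OCA2, KIT and S100B had 0 counts in every control library. The 12 keratinocyte markers summed to 9248 to 11988 CPM in glabridin and 11363 to 12371 CPM in melanosome libraries. In control libraries they summed to 13738 to 13928 CPM, and all 12 were detected in every group. KRT5 alone averaged 2249 CPM in glabridin, 3546 CPM in melanosome and 5202 CPM in control libraries. The markers did not move together. With melanosomes 3 were higher and 7 lower than in control. In glabridin libraries 5 were higher and 2 lower than in melanosome, and 2 higher and 4 lower than in control libraries. In glabridin against melanosome libraries, 1 of the 20 melanocyte markers was higher and 7 lower, among them DCT (5.56 CPM in glabridin and 37.6 CPM in melanosome libraries) and MITF (53.1 CPM in glabridin and 100.2 CPM in melanosome libraries). Of 7 fibroblast markers 4 were tested, and they summed to 12.7 to 14.8 CPM in glabridin, 18.8 to 20.4 CPM in melanosome and 42.3 to 45.5 CPM in control libraries, with DCN lower and LUM higher in both laden groups than in control. Of the leukocyte markers, PTPRC was at 0 in all libraries. CD68, a lysosomal protein gene, averaged 109 CPM in glabridin, 69.1 CPM in melanosome and 53.7 CPM in control libraries. It was called higher in each comparison. CD14 ran the other way, at 3.75 CPM in glabridin, 4.39 CPM in melanosome and 5.40 CPM in control libraries. It was called lower in glabridin against control libraries only (edgeR adjusted p = 0.0124), and CD3E was not called in any comparison. Mitochondrially encoded genes took 1.53% to 1.87% of counts in glabridin, 2.51% to 2.65% in melanosome and 3.36% to 3.61% in control libraries. In these bulk libraries fewer keratinocytes and less of a transcript per keratinocyte cannot be told apart, and the part of these marker and mitochondrial shifts in the values below was not tested. The glabridin libraries differed most among themselves: the chi-square per gene was 31.4 to 104 between them, against 4.44 to 14.4 between melanosome and 3.19 to 5.42 between control libraries. Glabridin replicate 2 held the most melanocyte and keratinocyte marker counts of its group.

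Upstream sequence is shown for 7 members whose transcripts fell or rose, so that both kinds can be read side by side. Each line gives the 250 bases before the RefSeq start (GRCh38.p14), 5′ to 3′ in the direction of transcription, with matches to the AP-1 motif TGANTCA in capitals. AP-1 (FOS and JUN proteins) is known to act on the involucrin and SPRR promoters. In glabridin against control libraries IVL, FLG and CASP14 fell, and SPRR1B, SBSN, KLK6 and ALOX12B rose. These 7 were chosen after their values were seen. The windows are IVL at chr1:152908296-152908545 on the plus strand, FLG at chr1:152325240-152325489 on the minus strand, CASP14 at chr19:15049230-15049479 on the plus strand, SPRR1B at chr1:153030953-153031202 on the plus strand, SBSN at chr19:35528312-35528561 on the minus strand, KLK6 at chr19:50969592-50969841 on the minus strand and ALOX12B at chr17:8087717-8087966 on the minus strand.
IVL: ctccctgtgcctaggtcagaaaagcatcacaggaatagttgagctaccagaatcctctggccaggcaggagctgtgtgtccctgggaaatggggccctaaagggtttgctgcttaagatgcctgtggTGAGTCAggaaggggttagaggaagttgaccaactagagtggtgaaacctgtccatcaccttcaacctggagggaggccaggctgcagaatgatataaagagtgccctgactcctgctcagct
FLG: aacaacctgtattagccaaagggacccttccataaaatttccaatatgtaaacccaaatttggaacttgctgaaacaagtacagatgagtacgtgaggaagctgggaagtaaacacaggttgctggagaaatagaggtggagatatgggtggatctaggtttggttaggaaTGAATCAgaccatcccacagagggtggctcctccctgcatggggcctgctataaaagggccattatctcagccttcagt
CASP14: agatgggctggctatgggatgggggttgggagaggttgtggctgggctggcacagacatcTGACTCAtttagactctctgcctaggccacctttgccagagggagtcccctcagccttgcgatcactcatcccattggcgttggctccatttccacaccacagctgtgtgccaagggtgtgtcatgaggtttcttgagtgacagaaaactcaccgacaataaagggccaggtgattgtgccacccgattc
SPRR1B: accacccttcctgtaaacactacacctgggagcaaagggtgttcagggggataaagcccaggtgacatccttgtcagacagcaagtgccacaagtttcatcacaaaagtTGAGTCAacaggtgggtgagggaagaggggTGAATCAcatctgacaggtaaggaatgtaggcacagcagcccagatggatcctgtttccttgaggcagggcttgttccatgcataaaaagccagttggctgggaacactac
SBSN: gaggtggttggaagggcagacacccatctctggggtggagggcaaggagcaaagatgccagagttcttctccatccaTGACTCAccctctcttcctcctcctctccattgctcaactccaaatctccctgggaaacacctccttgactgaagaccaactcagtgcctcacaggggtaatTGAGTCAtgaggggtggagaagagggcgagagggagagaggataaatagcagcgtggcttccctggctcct
KLK6: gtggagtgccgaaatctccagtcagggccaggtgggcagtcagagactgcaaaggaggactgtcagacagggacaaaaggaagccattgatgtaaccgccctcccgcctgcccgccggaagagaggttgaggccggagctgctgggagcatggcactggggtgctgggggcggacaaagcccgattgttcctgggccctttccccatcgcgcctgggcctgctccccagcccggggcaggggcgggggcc
ALOX12B: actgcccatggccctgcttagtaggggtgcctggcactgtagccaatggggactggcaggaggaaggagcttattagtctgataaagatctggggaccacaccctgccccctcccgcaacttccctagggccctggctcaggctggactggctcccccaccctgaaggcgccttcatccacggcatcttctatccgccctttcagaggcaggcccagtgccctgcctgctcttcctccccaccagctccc
Among these chosen genes, the motif stood in each that fell and in some that rose. This does not hold for all members that fell. CNFN, TGM5 and SPINK5 were also called lower in glabridin against control libraries, and their windows held no TGANTCA. IVL, FLG and CASP14 each held 1 match, starting 123, 79 and 190 bases before the start, while SPRR1B held 2 and SBSN held 2. KLK6 and ALOX12B held none, which says only that these letters are not in these windows. RefSeq listed such windows for 39 members, 55 windows in all, of which 12 (21.8%) held TGANTCA on either strand, against 6.57% of all 35116 windows of this length. Besides those printed, the genes with a match were LORICRIN, FLG2, SPRR1A, SPRR2A, SPRR3, KRTDAP and ALOXE3. The grainyhead motif AACNGGTT was found in 3.64% of member windows and 1.49% of all windows, with TGM5 and SPINK5 as the genes. The CACCC box CCNCACCC, which KLF proteins bind, was in 27.3% of member windows and 16.7% of all windows, and the AP-2 motif GCCNNNGGC in 21.8% of member windows and 19.8% of all windows. All motifs were searched on both strands and no match overlapped one of another motif. Windows of 1 gene can overlap, and a match is a string of letters, not a shown binding site.

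With melanosomes most tested envelope genes fell, and 3 kallikreins and the lipoxygenase ALOXE3 rose. ALOX12B, the other lipoxygenase, was called higher on few reads. With glabridin on top of melanosomes, 3 of 4 crosslinking and processing enzymes fell and 3 of 5 differentiation factors rose. Between melanosome and control libraries, 7 of 36 tested members rose and 14 fell, which is 58.3% called, against 62.5% of all tested genes. The share was therefore near the background, while the balance was 19.4% higher and 38.9% lower for members, against 29.5% higher and 33% lower for all genes. The median log2 change was -0.23 for members and -0.06 for all genes. Between glabridin and melanosome libraries, 10 rose and 8 fell, 50% of members, against 43.9% of all genes (23.7% higher, 20.2% lower). Their median log2 change was 0.03, against 0.01 for all genes. Between glabridin and control libraries, 13 rose and 14 fell, 75% of members, against 70.3% of all genes (37.6% higher, 32.7% lower), with medians of -0.18 and 0.04. These comparisons share libraries pairwise, so they are not independent of each other. With library totals alone, which moved log2 changes of all genes by a median of 0.17 in melanosome against control and -0.18 in glabridin against melanosome libraries, 8 members rose and 9 fell in the first comparison and 8 rose and 14 fell in the second. With upper-quartile factors, whose median shift was -0.11 in the second comparison, 10 rose and 11 fell in it, and with RLE factors 10 rose and 10 fell.

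**Figure D1:**
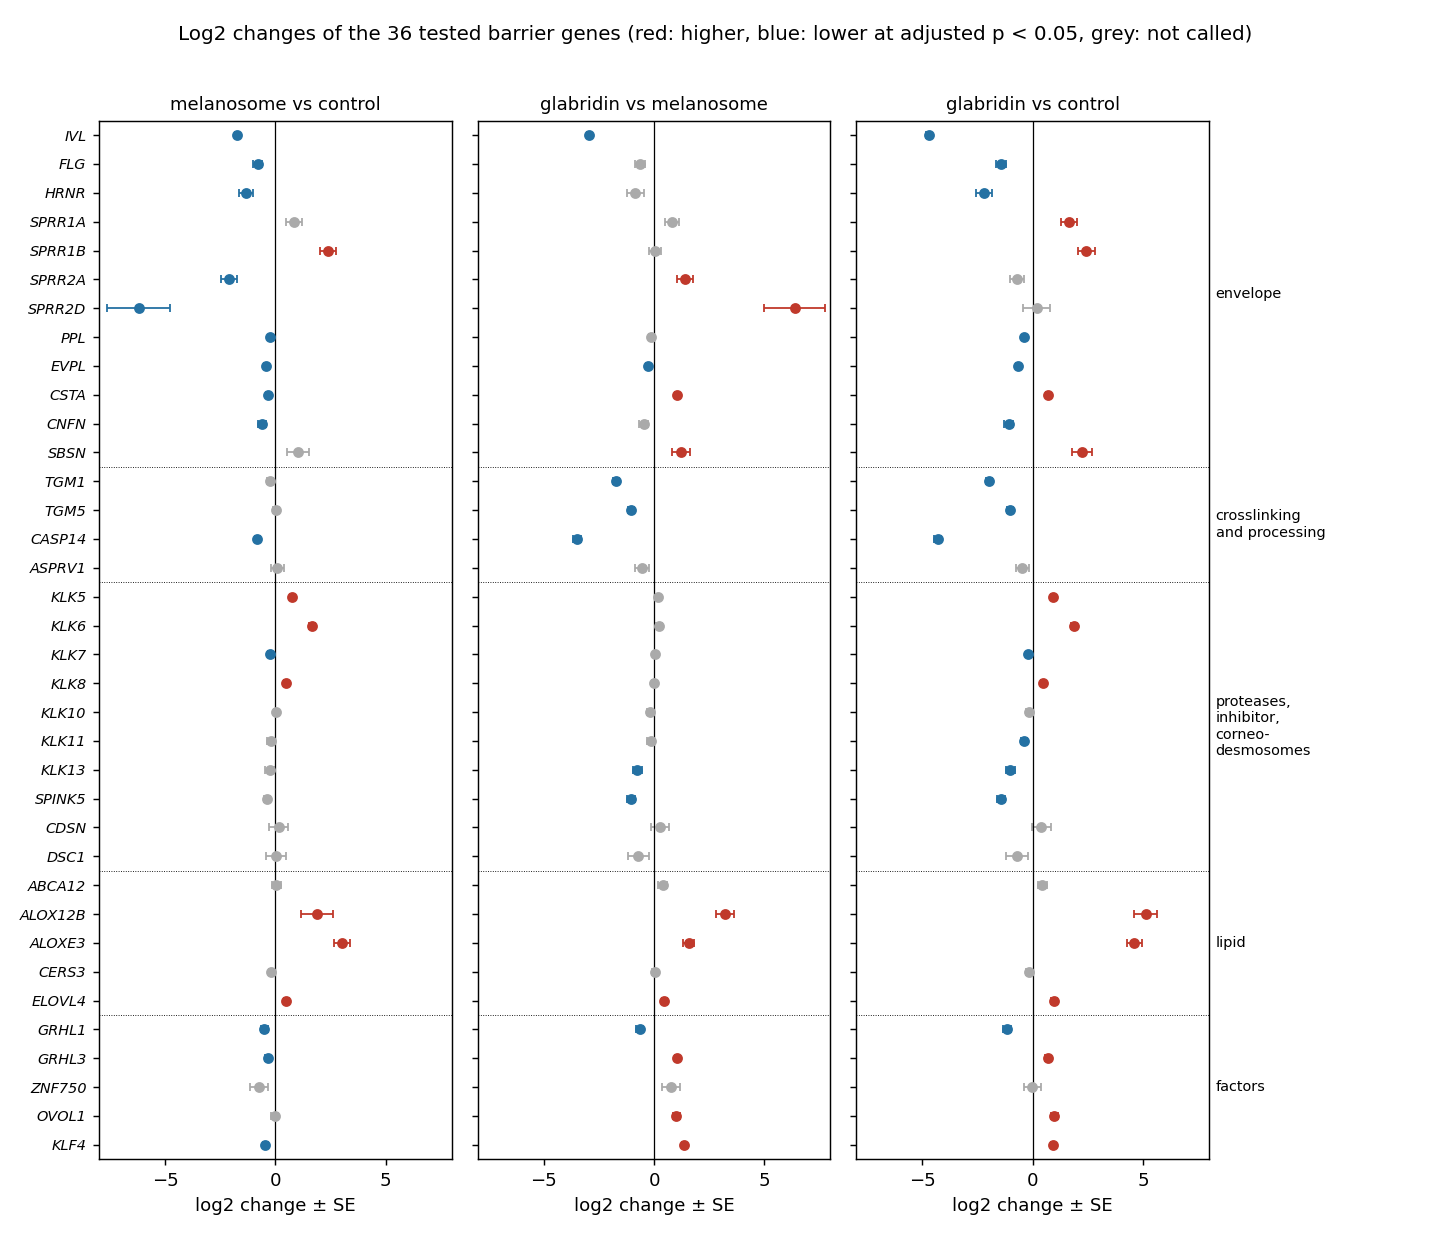
Log2 changes with standard errors (horizontal axes) of the 36 tested barrier genes in each comparison, grouped by role from top to bottom, with called rises in red, called falls in blue and uncalled genes in grey. IVL and CASP14 lie left of 0 in every panel and ALOX12B and ALOXE3 right of 0, while KLF4 and GRHL3 change sides between the first panel and the others.

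Of 12 tested envelope proteins, 9 fell and 1 rose in melanosome against control libraries, 2 fell and 4 rose in glabridin against melanosome libraries, and 6 fell and 4 rose in glabridin against control libraries. The called share was 83.3%, 50% and 83.3% in these comparisons, against 62.5%, 43.9% and 70.3% of all tested genes. IVL encodes involucrin, an early scaffold of the envelope (chromosome 1, 152908545 to 152911886, GENCODE 29 on GRCh38). It was at 4.44, 3.79 and 4.75 CPM in glabridin libraries, 31.6, 33.8 and 36 CPM in melanosome libraries and 116, 111 and 116 CPM in control libraries. The groups lay far apart and none overlapped. IVL fell by 1.76 ± 0.08 (log2 change ± SE) in melanosome against control libraries (edgeR adjusted p = 4.3e-08), and by a further 2.96 ± 0.09 in glabridin against melanosome libraries (edgeR adjusted p = 1.37e-08). Glabridin libraries thus held 26.4-fold less IVL than control libraries. On the length-scaled TPM scale, IVL was the third most abundant member in control, at 138 ± 3.14 TPM, and averaged 5.24 ± 0.855 TPM in glabridin libraries.

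The filaggrin-type genes were expressed at lower levels. FLG, whose product bundles keratin and is later broken down to moisturising amino acids, had 1.59, 0.955 and 2.10 CPM in glabridin libraries, 2.29, 2.32 and 2.61 CPM in melanosome libraries and 3.78, 4.36 and 4.55 CPM in control libraries. No glabridin library reached the lowest melanosome library, and no melanosome library reached the lowest control library. FLG fell by 0.81 ± 0.22 with melanosomes (edgeR adjusted p = 0.00798), while the change of -0.62 ± 0.23 with glabridin did not pass (edgeR adjusted p = 0.0517). That glabridin value lies at the threshold: it passed without glabridin replicate 3 (-0.90, edgeR adjusted p = 0.00438), whose FLG level was the highest of its group, and with RLE factors (-0.68, edgeR adjusted p = 0.032). The fall of FLG also passed with upper-quartile factors (-0.74, edgeR adjusted p = 0.0225), library totals alone, DESeq2, limma and a replicate block. It did not pass with no filter, with the 2 groups alone, or without any other single library. HRNR, the hornerin gene, averaged 0.200 ± 0.0198 CPM in glabridin, 0.369 ± 0.128 CPM in melanosome and 0.926 ± 0.244 CPM in control libraries, and fell by 1.34 ± 0.32 in melanosome against control libraries (edgeR adjusted p = 0.00411). Genes on the opposite strand overlap exons of FLG, KLK5, KLK6, KLK10, CDSN, DSC1, ABCA12, ALOX12B and OVOL1, and ASPRV1 and KLK8 are overlapped on their own strand. The libraries were stranded, but whether the authors' counting used strand was not found, so these values are uncertain to that extent.

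The small proline-rich genes lie near IVL and moved in both directions. IVL, LORICRIN, FLG, FLG2, HRNR, SPRR1A, SPRR1B, SPRR2A, SPRR2D, SPRR3 and LCE3D form 11 members of the epidermal differentiation complex on chromosome 1, between 152212082 and 153262122, of which 7 were tested. SPRR1B, a cross-bridging precursor, had 0.651, 0.930 and 0.876 CPM in glabridin libraries, 0.794, 0.586 and 0.984 CPM in melanosome libraries and 0.183, 0.0904 and 0.173 CPM in control libraries. The laden groups overlapped each other and lay above control. SPRR1B rose by 2.40 ± 0.36 in melanosome against control libraries (edgeR adjusted p = 2.44e-04). With 8, 4 and 7 counts in control libraries, SPRR1B passed the filter on low counts through the laden groups alone. The filter thus favoured a rise of SPRR1B against control, and its p-value is given as a description. Its neighbour SPRR1A averaged 1.63 ± 0.695 CPM in glabridin, 0.91 ± 0.135 CPM in melanosome and 0.515 ± 0.164 CPM in control libraries. SPRR1A rose in glabridin against control libraries (1.65 ± 0.35, edgeR adjusted p = 0.00149), while its change of 0.82 ± 0.36 with melanosomes did not pass (edgeR adjusted p = 0.0678). It passed with library totals alone (0.99, edgeR adjusted p = 0.0333), with DESeq2 (0.89, adjusted p = 0.0396), and without glabridin replicate 2 (0.82, edgeR adjusted p = 0.0223), glabridin replicate 3 (0.82, edgeR adjusted p = 0.0382) or control replicate 1 (1.09, edgeR adjusted p = 0.0473). In glabridin against melanosome libraries its difference of 0.82 ± 0.32 did not pass (edgeR adjusted p = 0.0588), but did without glabridin replicate 3 (1.04, edgeR adjusted p = 0.0135).

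SPRR2 genes were lowest in the melanosome group. SPRR2A held 20, 23 and 24 counts in glabridin libraries, 8, 6 and 14 in melanosome libraries and 27, 43 and 38 in control libraries. It fell by 2.10 ± 0.34 with melanosomes (edgeR adjusted p = 4.01e-04) and rose by 1.40 ± 0.36 with glabridin (edgeR adjusted p = 0.00988), with no overlap between groups. SPRR2D held 16, 2 and 12 counts in glabridin libraries, 0 in each melanosome library and 8, 12 and 6 in control libraries. It passed the filter on low counts through glabridin and control libraries only, so its calls against melanosome libraries are a description. A floor of 3 counts over the melanosome group is 0.0208 CPM. The pooled SPRR2D level stood 11.1-fold above this floor in glabridin and 9.73-fold above it in control libraries. These folds bound the melanosome side only, and the spread of the other group is not in them. Floors cover counting error only. Of counts from 1 to 49, 69.9% to 72.2% per library were even, so low counts may not be independent reads. SPRR1A and SPRR1B, and likewise SPRR2A and SPRR2D, are near-identical copies that could share reads, which makes each single value uncertain.

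PPL, the periplakin gene, averaged 541 ± 31.4 CPM in glabridin, 600 ± 31.1 CPM in melanosome and 707 ± 14.1 CPM in control libraries, and EVPL, the envoplakin gene, 68.8 ± 8.90 CPM in glabridin, 82.8 ± 5.32 CPM in melanosome and 110 ± 3.72 CPM in control libraries. PPL fell by 0.24 ± 0.06 with melanosomes (edgeR adjusted p = 0.00601), a change that did not pass with library totals alone (-0.07, edgeR adjusted p = 0.212) or without glabridin replicate 1 (-0.16, edgeR adjusted p = 0.0624). EVPL fell by 0.41 ± 0.09 with melanosomes (edgeR adjusted p = 0.00283) and by 0.27 ± 0.09 with glabridin (edgeR adjusted p = 0.036). Against control, glabridin libraries had lower PPL (-0.39 ± 0.06, edgeR adjusted p = 1.86e-04) and EVPL (-0.68 ± 0.09, edgeR adjusted p = 6.65e-05). The fall of EVPL in glabridin against melanosome libraries lay near the threshold: without melanosome replicate 3 it was -0.22 (edgeR adjusted p = 0.128), without melanosome replicate 2 -0.26 (adjusted p = 0.0932), without glabridin replicate 3 -0.18 (adjusted p = 0.0688), and without control replicate 1, 2 or 3 it stayed at -0.27 (adjusted p = 0.0531 to 0.0554). CNFN, the cornifelin gene, fell by 0.61 ± 0.19 with melanosomes (edgeR adjusted p = 0.0148), and did not pass without melanosome replicate 1 (-0.45, edgeR adjusted p = 0.0569). In glabridin against melanosome libraries CNFN did not pass (-0.48 ± 0.20, edgeR adjusted p = 0.0732), but did so with upper-quartile factors, library totals alone (-0.65, edgeR adjusted p = 0.0152), DESeq2 and limma, and without glabridin replicate 2 or melanosome replicate 1. PPL did not pass there either (-0.15 ± 0.06, edgeR adjusted p = 0.0663), but did so with RLE or upper-quartile factors, library totals alone (-0.33, edgeR adjusted p = 3.11e-04), DESeq2 and limma, and without glabridin replicate 2.

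CSTA and SBSN rose with glabridin. CSTA encodes cystatin A, a cysteine protease inhibitor crosslinked into the envelope. It had 84.5, 65.2 and 82.9 CPM in glabridin libraries, 36.5, 39.1 and 38.3 CPM in melanosome libraries and 50.4, 50.0 and 44.1 CPM in control libraries. All glabridin libraries lay above all others, and CSTA rose by 1.03 ± 0.10 in glabridin against melanosome libraries (edgeR adjusted p = 2.29e-05). Its fall of 0.34 ± 0.10 with melanosomes did not pass with library totals alone (-0.18, edgeR adjusted p = 0.182) or without control replicate 1 (-0.31, edgeR adjusted p = 0.0504). SBSN, the suprabasin gene, had 28, 44 and 30 counts in glabridin libraries, 16, 20 and 12 in melanosome libraries and 8, 3 and 10 in control libraries. SBSN was called higher in glabridin than in melanosome libraries (1.23 ± 0.40, edgeR adjusted p = 0.0286), and not when glabridin replicate 1 (1.29, adjusted p = 0.0542), glabridin replicate 2 (0.93, adjusted p = 0.0821), melanosome replicate 1 (1.17, adjusted p = 0.0886) or melanosome replicate 3 (1.03, adjusted p = 0.11) was left out. Against control the rise was 2.25 ± 0.46 (edgeR adjusted p = 0.00113).

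Of the members, 11 were too low to test. LORICRIN, the main mass of the mature envelope in skin, had 0, 0 and 4 counts in glabridin libraries, 0 in each melanosome library and 4, 1 and 1 in control libraries. Those below the filter were LORICRIN, FLG2, SPRR3, LCE3D, KRTDAP, CALML3, CALML5, TGM3, DSG1, CYP4F22 and HOPX, and none exceeded 10 counts in a library. No direction can be given for them at this depth. The least abundant members that passed were SPRR2D with 56 counts over all libraries and DSC1 with 94, next to SPRR3 with 31 counts, the most abundant that did not.

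**Figure D2:**
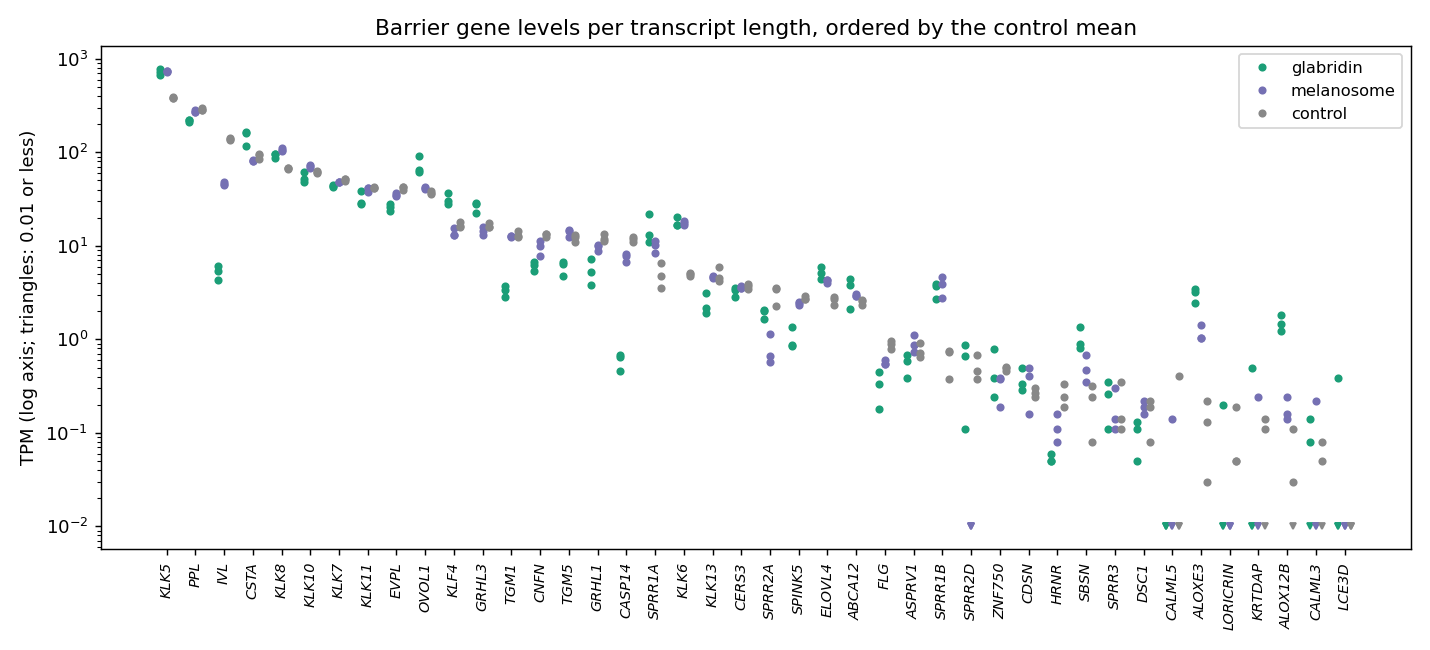
TPM of the barrier genes in every library (vertical log axis, points at 0.01 or less drawn as triangles), ordered by the control mean, with members whose mean was under 0.05 TPM in all groups left out. KLK5 leads at 382 ± 7.90 TPM in control, and the points of IVL and CASP14 separate into all 3 groups, while those of TGM1 are low with glabridin and overlap between melanosome and control libraries.

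Of 4 tested crosslinking and processing enzymes, 1 fell with melanosomes, and 3 fell in glabridin against melanosome and against control libraries, with none rising. The called share was 25%, 75% and 75%, against 62.5%, 43.9% and 70.3% of all tested genes. TGM1 encodes the membrane-bound transglutaminase that joins envelope proteins (chromosome 14, 24249114 to 24264432). It had 4.87, 5.70 and 3.85 CPM in glabridin libraries, 15.4, 16.5 and 15.9 CPM in melanosome libraries and 18.1, 18.1 and 20.5 CPM in control libraries. Glabridin libraries stood well below the others, which lay close together. TGM1 fell by 1.73 ± 0.13 in glabridin against melanosome libraries (edgeR adjusted p = 4.19e-06), and its change of -0.24 ± 0.13 with melanosomes did not pass (edgeR adjusted p = 0.113), though it did, at the same size, without glabridin replicate 2 (edgeR adjusted p = 0.0346) or 3 (edgeR adjusted p = 0.0279).

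CASP14 fell in every comparison. Its product, caspase-14, is a protease of cornifying cells that takes part in filaggrin breakdown (chromosome 19, 15049384 to 15058293). It had 0.561, 0.905 and 0.745 CPM in glabridin libraries, 8.70, 7.48 and 8.69 CPM in melanosome libraries and 15.6, 14.6 and 13.7 CPM in control libraries. CASP14 fell by 0.82 ± 0.13 with melanosomes (edgeR adjusted p = 2.58e-04), and by 4.32 ± 0.16 in glabridin against control libraries (edgeR adjusted p = 4.89e-09), a 19.9-fold difference. TGM5, a second epidermal transglutaminase gene, had 7.16, 5.38 and 6.50 CPM in glabridin libraries, 13.5, 12.0 and 14.0 CPM in melanosome libraries and 13.4, 14.0 and 11.7 CPM in control libraries. Only its glabridin libraries stood apart, with a fall of 1.05 ± 0.13 against melanosome libraries (edgeR adjusted p = 9.34e-05). ASPRV1, a retroviral-like protease that cuts profilaggrin, was not called in any comparison and averaged 0.458 ± 0.105 CPM in glabridin, 0.674 ± 0.161 CPM in melanosome and 0.637 ± 0.125 CPM in control libraries.

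Of 10 tested genes of desquamation, 3 rose and 1 fell with melanosomes, none rose and 2 fell in glabridin against melanosome libraries, and 3 rose and 4 fell in glabridin against control libraries. The called share, 40%, 20% and 70%, was in no comparison above that of all tested genes (62.5%, 43.9% and 70.3%). The 7 kallikrein members lie together on chromosome 19, between 50943303 and 51065114. KLK5, a trypsin-like protease that activates other kallikreins, had 432, 499 and 385 CPM in glabridin libraries, 373, 398 and 397 CPM in melanosome libraries and 230, 234 and 226 CPM in control libraries. Both laden groups lay above control and overlapped each other. KLK5 rose by 0.76 ± 0.08 with melanosomes (edgeR adjusted p = 2.37e-05), and differed by 0.17 ± 0.08 in glabridin against melanosome libraries (edgeR adjusted p = 0.12). That difference passed without glabridin replicate 3 (0.26, edgeR adjusted p = 0.00543), the glabridin library with the lowest KLK5, and was -0.01 with library totals alone.

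KLK6, another trypsin-like kallikrein, had 12.9, 16.3 and 12.1 CPM in glabridin libraries, 10.9, 11.9 and 12.4 CPM in melanosome libraries and 3.83, 3.57 and 3.86 CPM in control libraries, and the rise with melanosomes was 1.65 ± 0.13 (edgeR adjusted p = 1.94e-06). Without glabridin replicate 3 its glabridin difference also passed (0.31, edgeR adjusted p = 0.0432). KLK8 rose by 0.48 ± 0.08 with melanosomes (edgeR adjusted p = 6.55e-04). In glabridin against melanosome libraries KLK8 was not called, except lower with library totals alone (-0.19, edgeR adjusted p = 0.0487) and limma (-0.20, limma adjusted p = 0.0102). KLK7, the chymotrypsin-like kallikrein, averaged 37.2 ± 1.22 CPM in glabridin, 36 ± 1.01 CPM in melanosome and 43.2 ± 0.675 CPM in control libraries, and its fall of 0.26 ± 0.06 with melanosomes did not pass with library totals alone (-0.09, edgeR adjusted p = 0.176). Rises and a small fall thus stood side by side within the cluster.

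KLK10, KLK11 and KLK13 were not called higher in any comparison, except KLK10 in melanosome against control libraries when those groups alone were fitted (0.10, edgeR adjusted p = 0.0407). KLK13 had 1.66, 2.54 and 1.40 CPM in glabridin libraries, 3.0, 3.26 and 3.17 CPM in melanosome libraries and 3.51, 3.26 and 4.52 CPM in control libraries, and fell by 0.76 ± 0.22 in glabridin against melanosome libraries (edgeR adjusted p = 0.0158). KLK10 averaged 78.7 ± 14.8 CPM in glabridin, 90.2 ± 3.83 CPM in melanosome and 88.9 ± 2.15 CPM in control libraries. Its glabridin replicate 2, at 95.2 CPM, lay above the other glabridin libraries, at 74.7 and 66.3 CPM, and without it KLK10 was called lower than in melanosome (-0.36, edgeR adjusted p = 7.5e-04) and control libraries (-0.33, edgeR adjusted p = 6.45e-04). With all libraries, KLK10 was called lower than in melanosome libraries with library totals alone (-0.38, edgeR adjusted p = 0.0111) and with limma (-0.39, limma adjusted p = 0.00386). KLK11 was called lower in glabridin than in control libraries (-0.38 ± 0.14, edgeR adjusted p = 0.0326). That call was lost without glabridin replicate 1 (-0.32, adjusted p = 0.124), glabridin replicate 3 (-0.27, adjusted p = 0.0713) or control replicate 1, 2 or 3 (-0.40 to -0.37, adjusted p = 0.0638 to 0.0791), and without glabridin replicate 2 the value was -0.59. Leaving out glabridin replicate 2 also made KLK11 pass against melanosome libraries (-0.36, edgeR adjusted p = 0.00417) and in melanosome against control libraries (-0.22, edgeR adjusted p = 0.021). With all libraries, KLK11 passed in glabridin against melanosome libraries with limma (-0.35, limma adjusted p = 0.022).

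SPINK5, whose product LEKTI inhibits KLK5, had 1.32, 1.46 and 2.06 CPM in glabridin libraries, 3.29, 3.49 and 3.25 CPM in melanosome libraries and 4.26, 4.61 and 4.20 CPM in control libraries, without overlap. SPINK5 fell by 1.05 ± 0.17 in glabridin against melanosome libraries (edgeR adjusted p = 6.08e-04), and by 1.43 ± 0.17 against control (edgeR adjusted p = 2.2e-05). The change of -0.38 ± 0.16 with melanosomes did not pass (edgeR adjusted p = 0.0532), but did so without glabridin replicate 2 (edgeR adjusted p = 0.0327) or 3 (edgeR adjusted p = 0.0159) at nearly the same size. Per length, KLK5 exceeded SPINK5 852-fold, 899-fold and 490-fold in glabridin libraries, 296-fold, 296-fold and 318-fold in melanosome libraries and 141.3-fold, 133.5-fold and 140.5-fold in control libraries. KLK7 exceeded SPINK5 33.0-fold to 51.5-fold in glabridin, 19.4-fold to 20.8-fold in melanosome and 17.8-fold to 19.2-fold in control libraries. These ratios of TPM are given as a description, and they set transcripts, not protein activities, beside each other.

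Corneodesmosome genes were scarce. CDSN, the corneodesmosin gene, and DSC1, a desmosomal cadherin gene, were not called in any comparison, with 7 to 21 and 4 to 15 counts per library. DSG1 had 0, 0 and 1 counts in glabridin libraries, 0 in each melanosome library and 2, 4 and 0 in control libraries.

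**Figure D3:**
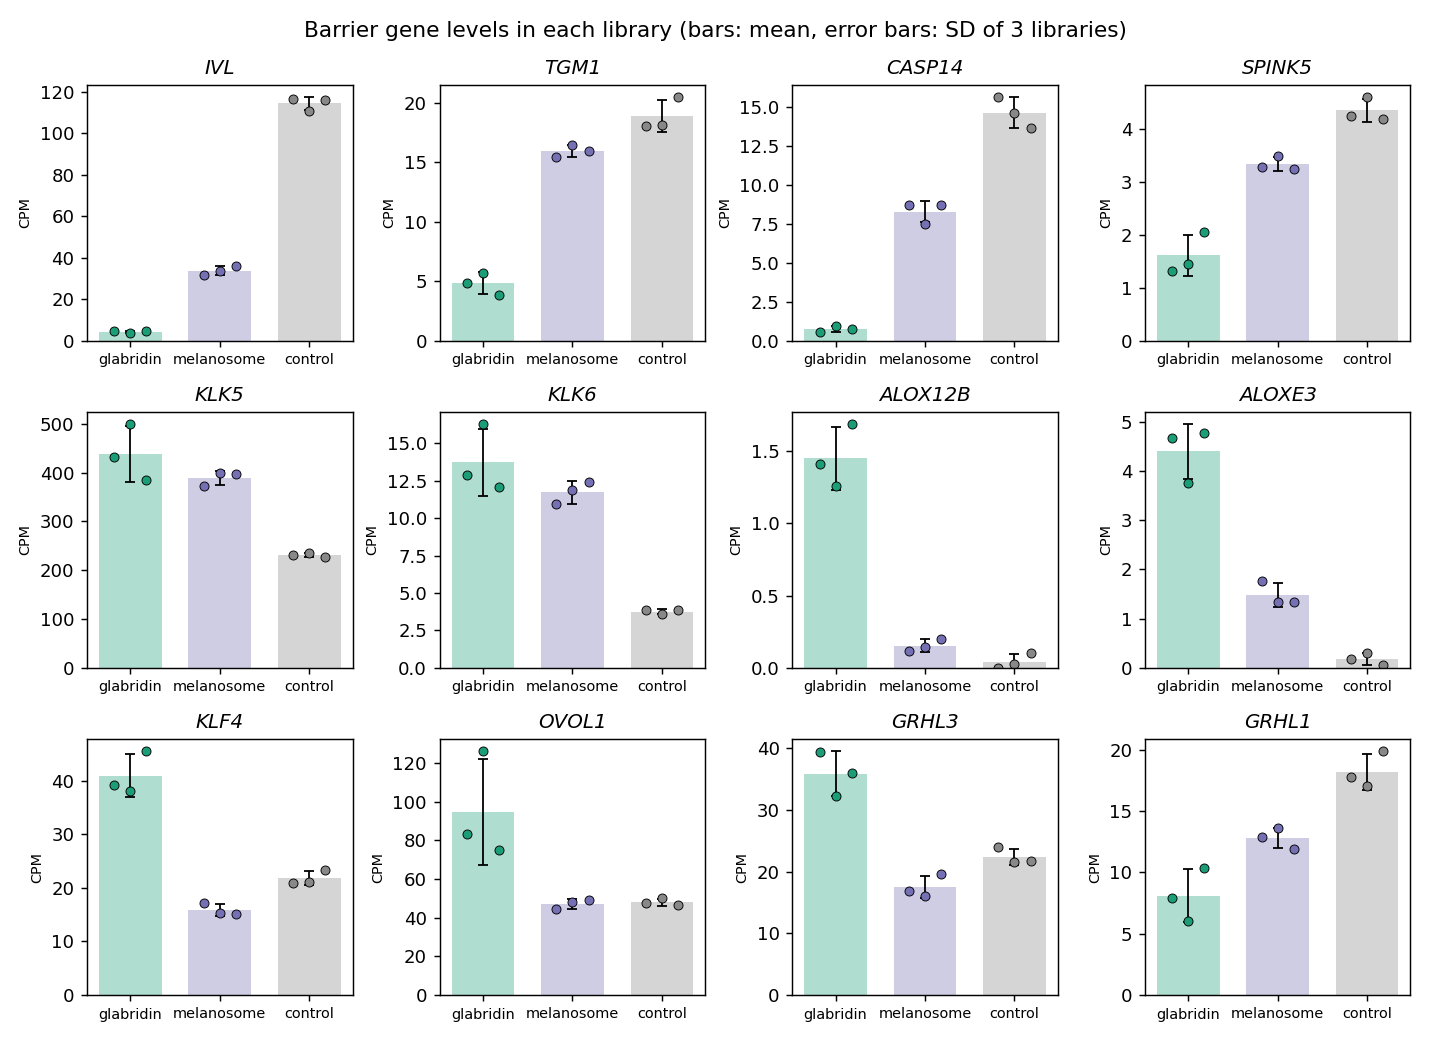
CPM of 12 barrier genes in each library (points), with the mean (bars) and SD (error bars) of 3 libraries per group, and vertical axes that start at 0. IVL, TGM1, CASP14 and SPINK5 are lowest with glabridin, KLK5 and KLK6 are high in both laden groups, and ALOX12B and ALOXE3 are highest with glabridin.

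The lipid genes rose or were not called. Of 5 tested, 3 rose in each comparison and none fell. That is 60% called each time, against 62.5%, 43.9% and 70.3% of all tested genes. Rises alone were called for 29.5%, 23.7% and 37.6% of all tested genes. ALOX12B and ALOXE3 encode lipoxygenases that act one after the other on the linoleate of skin ceramides, so that these can be bound to the envelope. They lie next to each other on chromosome 17, between 8072636 and 8119047. ALOXE3 had 4.67, 3.77 and 4.77 CPM in glabridin libraries, 1.76, 1.34 and 1.34 CPM in melanosome libraries and 0.183, 0.294 and 0.0495 CPM in control libraries. Each group lay wholly above the next. ALOXE3 rose by 3.04 ± 0.36 with melanosomes (edgeR adjusted p = 4.02e-05), and by 1.57 ± 0.24 in glabridin against melanosome libraries (edgeR adjusted p = 4.93e-04). ALOX12B had 63, 50 and 77 counts in glabridin libraries, 6, 6 and 10 in melanosome libraries and 0, 1 and 4 in control libraries. It passed the filter on low counts through its glabridin libraries alone. ALOX12B rose by 3.23 ± 0.40 in glabridin against melanosome libraries (edgeR adjusted p = 1.18e-04). As the filter kept ALOX12B only because it was high in glabridin libraries, this p-value is a description, not support. ALOX12B is counted among the 3 lipid genes that rose in each comparison. Its rise with melanosomes rested on few reads (1.89 ± 0.72, edgeR adjusted p = 0.04): without melanosome replicate 2 it was 1.94 (adjusted p = 0.0668), without melanosome replicate 3 1.64 (adjusted p = 0.121), without control replicate 1 1.33 (0.11), without control replicate 2 1.62 (adjusted p = 0.118), and without control replicate 3, which held 4 of the 5 control counts, 3.46.

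ELOVL4 lengthens the very long fatty acids of skin ceramides. It had 5.97, 5.53 and 6.55 CPM in glabridin libraries, 4.03, 4.48 and 4.54 CPM in melanosome libraries and 3.16, 2.76 and 3.34 CPM in control libraries, without overlap. ELOVL4 rose by 0.49 ± 0.13 with melanosomes (edgeR adjusted p = 0.00618) and by 0.47 ± 0.12 with glabridin (edgeR adjusted p = 0.0099). The glabridin rise did not pass with library totals alone (0.29, edgeR adjusted p = 0.0733) or without glabridin replicate 1 (0.38, edgeR adjusted p = 0.0571). ABCA12, the lipid transporter of lamellar bodies, had 13.7, 8.04 and 15.2 CPM in glabridin libraries, 8.89, 9.5 and 9.90 CPM in melanosome libraries and 9.62, 9.31 and 8.46 CPM in control libraries. Its glabridin replicate 2 was the lowest of all libraries and the other glabridin libraries were the highest. The difference in glabridin against melanosome libraries did not pass (0.39 ± 0.19, edgeR adjusted p = 0.128) but did without that library (0.62, edgeR adjusted p = 2.94e-04). Against control it was 0.43 ± 0.19 (edgeR adjusted p = 0.0658) and passed without that library (0.66, edgeR adjusted p = 8.22e-05) and with RLE factors (0.45, edgeR adjusted p = 0.0481). CERS3, the ceramide synthase of epidermis, was not called and averaged 5.40 ± 0.483 CPM in glabridin, 5.33 ± 0.243 CPM in melanosome and 6.14 ± 0.371 CPM in control libraries.

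Of 5 tested differentiation factors, 3 fell and none rose with melanosomes. In glabridin against melanosome and against control libraries, 3 rose and 1 fell. The called share was 60%, 80% and 80%, against 62.5%, 43.9% and 70.3% of all tested genes. KLF4, a zinc finger factor needed for barrier formation in mice, had 39.2, 38.1 and 45.4 CPM in glabridin libraries, 17.1, 15.4 and 15.2 CPM in melanosome libraries and 20.9, 21.1 and 23.3 CPM in control libraries. KLF4 fell by 0.46 ± 0.10 with melanosomes (edgeR adjusted p = 0.00206), and rose by 1.37 ± 0.10 in glabridin against melanosome libraries (edgeR adjusted p = 2.23e-06). All glabridin libraries were above all control libraries (0.91 ± 0.10, edgeR adjusted p = 9.58e-06). OVOL1, a repressor that helps keratinocytes leave the cell cycle, had 83.6, 126 and 74.9 CPM in glabridin libraries, 44.2, 48.2 and 49.3 CPM in melanosome libraries and 47.4, 50.0 and 46.5 CPM in control libraries. It rose by 1.01 ± 0.16 with glabridin (edgeR adjusted p = 5.44e-04), and the level in glabridin replicate 2 was well above the other 2 of its group.

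GRHL3, which drives barrier genes, had 39.4, 32.3 and 36.1 CPM in glabridin libraries, 16.9, 16.1 and 19.6 CPM in melanosome libraries and 23.9, 21.5 and 21.7 CPM in control libraries, and rose by 1.04 ± 0.10 in glabridin against melanosome libraries (edgeR adjusted p = 2.7e-05). Its paralog GRHL1, a regulator of desmosomal cadherins, had 7.88, 6.06 and 10.3 CPM in glabridin libraries, 12.9, 13.6 and 11.9 CPM in melanosome libraries and 17.8, 17 and 19.9 CPM in control libraries. GRHL1 fell by 0.66 ± 0.17 in glabridin against melanosome libraries (edgeR adjusted p = 0.00826). Their falls with melanosomes were small and fragile. GRHL3 (-0.35 ± 0.10, edgeR adjusted p = 0.0132) did not pass with library totals alone (-0.19, adjusted p = 0.153), without melanosome replicate 2 (-0.30, adjusted p = 0.061) or without control replicate 1 (-0.30, adjusted p = 0.058). GRHL1 (-0.51 ± 0.16, edgeR adjusted p = 0.0183) did not pass with library totals alone (-0.34, adjusted p = 0.119), without melanosome replicate 3 (-0.46, adjusted p = 0.0688) or without control replicate 3 (-0.44, adjusted p = 0.0698). ZNF750, a factor of terminal differentiation, had 16, 24 and 48 counts in glabridin libraries, 24, 21 and 12 in melanosome libraries and 28, 30 and 29 in control libraries, and was not called in any comparison.

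**Figure D4:**
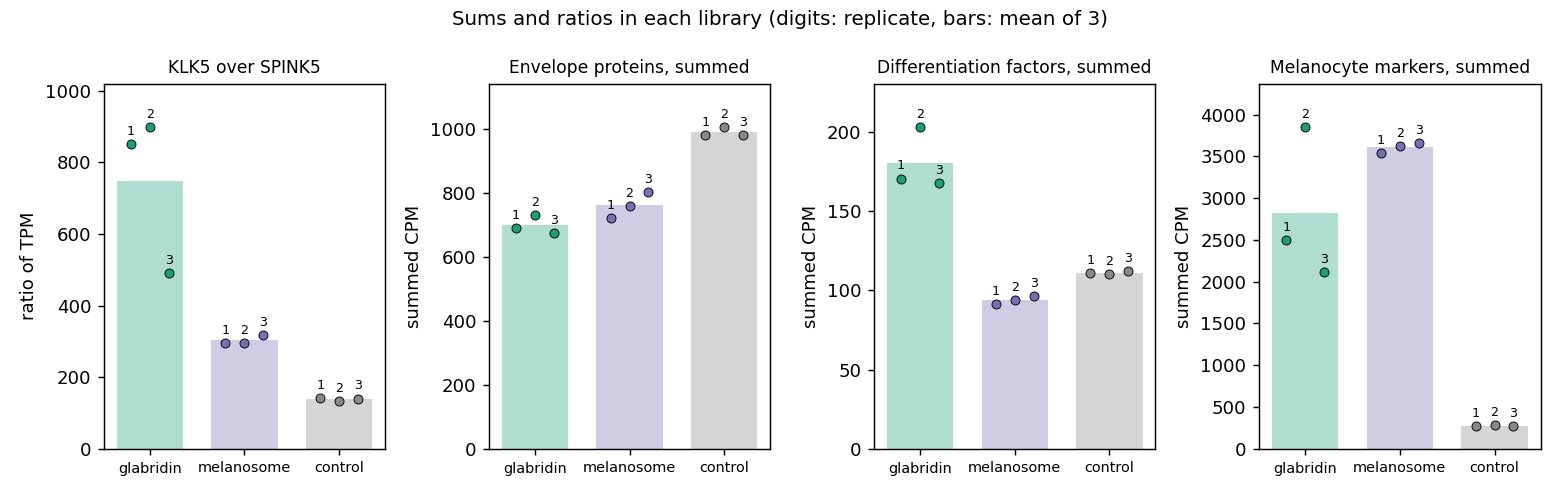
From left to right, the ratio of KLK5 to SPINK5 in TPM and the summed CPM of envelope proteins, differentiation factors and melanocyte markers in each library (points with replicate numbers) and the group mean (bars). The envelope sum is highest in control and the factor sum highest with glabridin, while the melanocyte markers run from 2113 to 3853 CPM in glabridin libraries. PPL makes up most of the envelope sum and OVOL1 the largest part of the factor sum. Single genes of a class can differ from its sum: GRHL1 is lowest with glabridin.

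A second list of 76 barrier genes outside the members was counted in the same fit. Of its 50 tested genes, 11 rose and 21 fell with melanosomes (64% called, against 62.5% of all genes), 14 rose and 12 fell with glabridin against melanosome libraries (52%, against 43.9%), and 17 rose and 21 fell in glabridin against control libraries (76%, against 70.3%). Its 11 tested lipid genes had no fall. With melanosomes 6 rose (54.5%, against 29.5% of all tested genes rising). In glabridin against melanosome libraries 4 rose (36.4%, against 23.7%), and against control libraries 7 rose (63.6%, against 37.6%). Its 15 differentiation genes did not share the balance of the members: 1 rose and 10 fell with melanosomes, 4 rose and 4 fell in glabridin against melanosome libraries, and 3 rose and 11 fell in glabridin against control libraries. Falls were called for 66.7%, 26.7% and 73.3% of these differentiation genes, against 33%, 20.2% and 32.7% of all tested genes. The 6 crosslinking and processing enzymes of the list did not share the balance of the members either. With melanosomes 1 rose and 1 fell. In glabridin against melanosome libraries 2 rose and 2 fell, and against control libraries 3 rose and 2 fell. The called share of these enzymes was 33.3%, 66.7% and 83.3%, against 62.5%, 43.9% and 70.3% of all tested genes. Of the list's 9 envelope genes, 2 rose and 6 fell, 2 rose and 3 fell, and 3 rose and 4 fell in these comparisons. Of its 9 desquamation and junction genes 1 rose and 4 fell, 2 rose and 3 fell, and 1 rose and 4 fell. The called share was 88.9%, 55.6% and 77.8% of these envelope genes, and 55.6% of the desquamation and junction genes in each comparison. SMPD1, the acid sphingomyelinase gene, averaged 62.1 CPM in glabridin, 48.4 CPM in melanosome and 10.98 CPM in control libraries, and rose by 2.14 ± 0.15 with melanosomes (edgeR adjusted p = 9.2e-07). PI3, which encodes the elastase inhibitor elafin, fell by 2.22 ± 0.15 with melanosomes (edgeR adjusted p = 5.91e-07). KRT1, a suprabasal keratin gene, averaged 0.0609 CPM in glabridin, 0.730 CPM in melanosome and 7.84 CPM in control libraries, the widest change of the list in each comparison. Its partner KRT10 rose by 1.56 ± 0.08 with glabridin (edgeR adjusted p = 2.57e-07), as did CLDN4, a tight junction gene (1.69 ± 0.10, edgeR adjusted p = 7.26e-07). KLK14 fell (-2.16 ± 0.59, edgeR adjusted p = 0.0128), but on few reads, with 0.0714 CPM in glabridin and 0.321 CPM in melanosome libraries. CLDN1, the main claudin of epidermal tight junctions, fell by 1.69 ± 0.10 with melanosomes (edgeR adjusted p = 1.5e-07). GATA3, a factor of epidermal lipid synthesis in mice, fell by 2.59 ± 0.08 in glabridin against control libraries (edgeR adjusted p = 1.37e-09).

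Across all tested genes, which are not replicates, log2 change and GC content of the longest transcript were related in melanosome against control libraries (Spearman rho 0.295) and in glabridin against control libraries (0.213), and hardly in glabridin against melanosome libraries (-0.0251). The tested members had a median GC content of 54.8%, against 48.8% for all genes. The part of GC content in the members' changes was not tested.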

How the data were processed

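Poly(A) RNA of 9 HaCaT libraries was sequenced as strand-specific read pairs, per the labels' protocols. The authors deposited raw counts for each gene and, per the file headers, TPM for the same genes. The genome build was hg38, per the submitters' processing notes, and the sources used here name no aligner, counter or annotation. Deposited FPKM were not used. Identifiers were matched to symbols in the reference name table (20148 of 20263).

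The main test was edgeR's quasi-likelihood F test (version 4.0.16, R 4.3.3) with TMM factors and filterByExpr by group, with all 9 libraries in 1 fit, no replicate block, and Benjamini-Hochberg adjustment over 13912 genes at 0.05. Standard errors came from the F statistic. TPM, as deposited, served to compare genes. Depth was 39653425 to 46690787 counts per library. The fit was also run on simulated counts with the same spread for every gene. As these libraries differ in spread, that run does not check the calls given here. Alternatives were RLE, upper-quartile or no factors, no filter, DESeq2 1.42.0, limma 3.58.1 on log2(TPM + 1), 2 groups only, a replicate block and each library left out. Values per library are given for the 4 called members of each role with the largest log2 change in any comparison, and for IVL, LORICRIN, FLG, TGM1, KLK5, SPINK5, ABCA12, GRHL3, ZNF750 and KLF4; other members given by library were chosen after their values were seen. From the second list, the 4 called genes with the largest change in each comparison are named. Members and lists were chosen with earlier results of these data known. Positions are from GENCODE 29 (GRCh38) and upstream sequences from RefSeq (GRCh38.p14); the genes whose sequence is shown were chosen after their values were seen.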

Additional observations from a re-analysis of the deposited data

How the results depend on the processing

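Of 108 tests of a member in a comparison, 66 were called. Of these calls, 54 passed under each of the 17 alternatives that tested them. The other 12, which concern PPL, CSTA, CNFN, KLK7, ALOX12B, GRHL1, GRHL3 and KLF4 in melanosome against control libraries, EVPL, SBSN and ELOVL4 in glabridin against melanosome libraries and KLK11 in glabridin against control libraries, kept their direction and lost the call under at least 1 alternative. KLF4 lost it with limma on log2(TPM + 1) alone (-0.26, limma adjusted p = 0.0732). Members called lower in melanosome against control libraries numbered 14, but 9 with library totals alone and 8 with limma on log2(TPM + 1). In glabridin against melanosome libraries 8 were lower, but 14 with library totals alone and 16 with limma on log2(TPM + 1). KLK7, not called there by edgeR, turned to -0.13 with limma (limma adjusted p = 0.0406). The cause was not tested. Without 1 library, these counts ranged from 12 to 17 and from 7 to 12, and those of members higher from 6 to 8 and from 8 to 13, while in glabridin against control libraries 13 to 14 were higher and 13 to 15 lower.

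Replicate numbers did not pair the libraries: deviations from group means of same-numbered libraries correlated between -0.234 and 0.05. With a replicate block, 7 members were higher and 14 lower in melanosome against control, 10 and 9 in glabridin against melanosome, and 13 and 14 in glabridin against control libraries; the added call was FLG (-0.65, edgeR adjusted p = 0.0441). The 11 members below the filter, none of them above 10 counts in any library, could not be tested at this depth.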
